A study of Mus musculus with 6 samples.

Results

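Cadherins and protocadherins, the calcium-dependent adhesion proteins that join neighbouring cells, were examined in RNA from mouse aortas. The set holds every gene whose symbol in the files starts with Cdh and a digit or with Pcdh, except Cdh5 (VE-cadherin). That gave 88 of 29752 genes: 22 cadherins, 12 protocadherins that lie on their own and 54 clustered protocadherins. Of these, 19 had a mean of at least 1 FPKM over all libraries and are called expressed below, where FPKM is the number of reads on a gene scaled to its length and to the reads of the library. Wild type has 3 libraries, and 3 libraries come from heterozygotes labelled PALMD+/-, in which the gene for palmdelphin (Palmd) is altered. All mice were C57BL/6 and 15 weeks old, and they ate normal diet from week 8, for 7 weeks in all. Values are given in the order of replicates 1 to 3. The sex, the altered part of Palmd and the number of animals behind each library are not given in the labels, so p-values measure the spread between these libraries, which may be technical.

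Classical cadherins hold cells together through their outer domains and bind beta-catenin and p120-catenin through their tails, which link the junction to actin. In vessels, N-cadherin joins smooth muscle cells to each other and to endothelium, and VE-cadherin joins endothelial cells. T-cadherin (Cdh13) has no tail, is held in the membrane by a lipid anchor and binds adiponectin and low-density lipoprotein. Protocadherins have weaker adhesion and other tails. The clustered ones lie side by side in alpha, beta and gamma arrays. Alpha and gamma genes each splice their own first exon to constant exons that all genes of the array share, and they are best known for giving neurons individual surface identities.

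The libraries were of nearly equal depth, with 17283949 to 18372046 reads behind the values. Heterozygote replicate 2 stood apart over all genes. Its mean correlation with the other libraries over tested genes was 0.915, against 0.956 to 0.967 for the others. Neuron markers, among them the noradrenaline synthesis genes Th and Dbh, summed to 517.8 FPKM there and to between 27.7 and 56.2 FPKM in the other 5 libraries. In it 8 of 8 of these markers were highest, beside 27.1% of all tested genes. Endothelial markers summed to 303.6 FPKM in it and 806.9 to 901.3 FPKM elsewhere, smooth muscle markers to 4766 and 7112 to 10270 FPKM, and white adipocyte markers to 5532 and 1592 to 4377 FPKM. Abundant genes weigh most in such sums. Pecam1 was at 72.0 FPKM in it and 352.4 to 424.2 FPKM elsewhere, and Cdh5 at 52.6 and 75.7 to 80.9 FPKM, while Cldn5 and Emcn lay within the range of the other libraries. It was lowest for 7 of 10 endothelial and 8 of 8 smooth muscle markers and highest for 9 of 10 white adipocyte markers. The smooth muscle, fibroblast and endothelial markers that define an aortic wall were present in every library. The comparison of genotypes is therefore also given without heterozygote replicate 2. In bulk tissue, fewer cells of a type and less RNA per cell cannot be told apart. Palmd averaged 7.82 ± 2.30 FPKM (SD, n = 3) in wild type against 6.24 ± 0.942 FPKM in heterozygotes, with overlapping groups (log2 fold change -0.26, limma adjusted p = 0.926).

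T-cadherin and Pcdh7 were the most abundant members, and together they held 50.6% to 56.2% of the summed FPKM of all members in 5 libraries and 34.5% in heterozygote replicate 2. They were the 2 members with a mean of at least 10 FPKM. A further 5 members lay between 3 and 6 FPKM, 10 lay between 1 and 2 FPKM, and the other 2, Cdh19 and Cdh3, fell in the gap. The expressed members were 7 of 22 cadherins, 5 of 12 non-clustered protocadherins and 7 of 54 clustered ones. At least 1 FPKM in every library was reached by 12 members. The nearest members below the limit were Cdh24, Pcdh9 and Pcdhga6, with means of 0.885, 0.833 and 0.797 FPKM, and the nearest above it were Pcdhga5 and Pcdh12, both with a mean of 1.01 FPKM. For comparison, Cdh5 averaged 78.8 ± 2.76 FPKM in wild type against 69.6 ± 14.8 FPKM in heterozygotes.

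**Figure D1:**
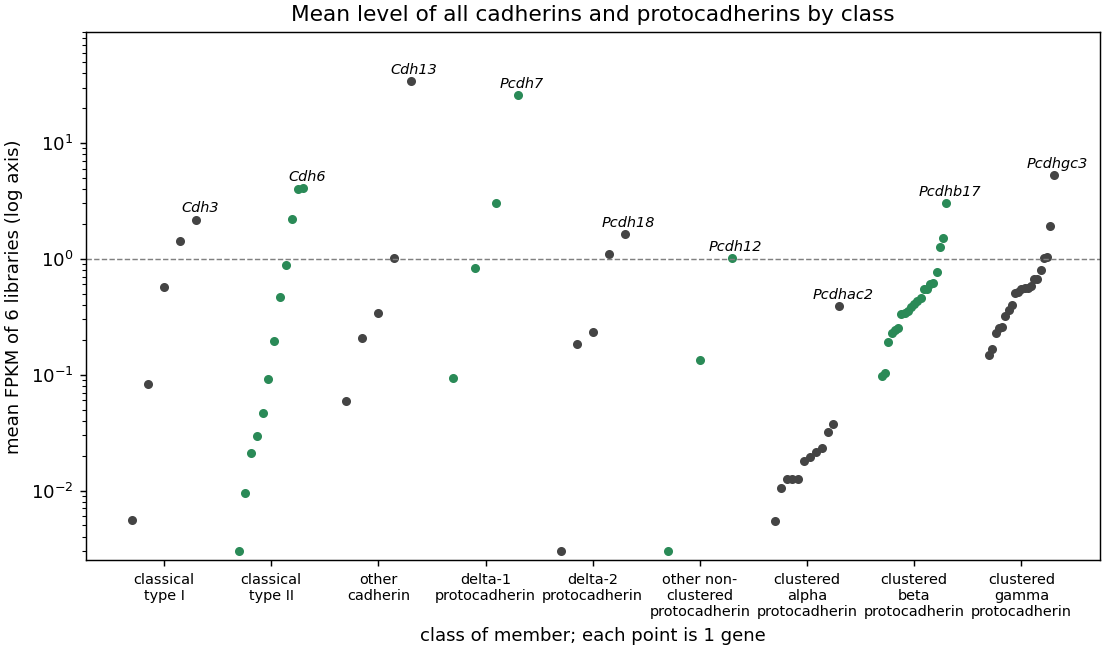
Mean FPKM of the 6 libraries (log axis) for each of the 88 members, by class, with the highest member of each class named and the dashed line at 1 FPKM. Cdh13 and Pcdh7 stand above 10 FPKM, no alpha protocadherin reaches 1 FPKM, and the points on the lower edge, Cdh7, Pcdh8 and Pcdh15, are drawn at the edge because their means were at or close to 0.

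Cdh13 (ENSMUSG00000031841, GRCm38 chromosome 8, 118283733 to 119324921) measured 39.8, 33.9 and 31.8 FPKM across the wild-type libraries and 41.5, 16.4 and 40.3 FPKM across the heterozygous ones. The low value of heterozygote replicate 2 lay outside the range of all others, and heterozygote replicates 1 and 3 were above all wild-type values. The log2 fold change on the log2(FPKM + 1) scale used throughout was -0.20 (SE 0.36, limma adjusted p = 0.960), and it was 0.22 without heterozygote replicate 2. Its ligand adiponectin, which fat cells make, averaged 206.1 ± 84.6 FPKM in wild type against 177.4 ± 129.0 FPKM in heterozygotes (gene Adipoq). The library with the lowest Cdh13 had the highest Adipoq, at 324.9 FPKM, and the library with the highest Cdh13, heterozygote replicate 1, had the lowest, at 85.3 FPKM. With the level of the white adipocyte markers as a covariate in the fit, the fold change of Cdh13 was -0.38 (limma adjusted p = 0.183), and 4 members, Cdh13, Pcdh18, Cdh3 and Pcdhgb6, had an unadjusted p under 0.05, beside 20.3% of all tested genes. The other members outside the classical groups were low. Cdh26 measured 1.36, 0.614 and 0.719 FPKM across the wild-type libraries and 1.58, 0.442 and 1.42 FPKM across the heterozygous ones, while Cdh23, the tip-link cadherin of hair cells, and the gut and kidney cadherins Cdh17 and Cdh16 stayed below 1 FPKM in each library.

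Among the type I classical cadherins, 2 of 5 were expressed. N-cadherin (Cdh2) measured 1.22, 1.25 and 1.65 FPKM across the wild-type libraries and 0.591, 2.94 and 0.808 FPKM across the heterozygous ones. Heterozygote replicates 1 and 3 were thus below every wild-type library and heterozygote replicate 2 above every one. P-cadherin (Cdh3, chromosome 8, 106510891 to 106557297) measured 2.07, 1.32 and 1.60 FPKM across the wild-type libraries and 3.00, 1.85 and 3.22 FPKM across the heterozygous ones. Only heterozygote replicate 2 overlapped the wild-type range. E-cadherin (Cdh1), which follows Cdh3 on the chromosome after 46054 bases and marks epithelium, was listed at 0 in 2 libraries and at 0.0120 to 0.329 FPKM in the others. M-cadherin (Cdh15) of skeletal muscle had a value above 0 in wild type replicate 2 alone, 0.0335 FPKM, and R-cadherin (Cdh4) lay between 0.459 and 0.654 FPKM.

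The type II cadherins had 3 expressed members of 12. Cdh6 (K-cadherin, chromosome 15, 13028701 to 13173675) measured 7.03, 3.54 and 3.63 FPKM across the wild-type libraries and 4.83, 2.79 and 2.58 FPKM across the heterozygous ones. The groups overlapped through heterozygote replicate 1, and the spread within wild type (SD 1.99) exceeded the difference of the means. Cdh11 (OB-cadherin of mesenchymal cells, chromosome 8, 102632095 to 102785642) measured 4.33, 3.09 and 3.28 FPKM across the wild-type libraries and 5.11, 3.36 and 4.94 FPKM across the heterozygous ones. Its 2 highest values were those of heterozygote replicates 1 and 3. Cdh19, a cadherin of the Schwann cell lineage, measured 1.59, 1.11 and 2.26 FPKM across the wild-type libraries and 0.972, 6.23 and 1.09 FPKM across the heterozygous ones. In heterozygote replicate 2 it was 5.63 times the median of the other libraries. Of 12 Schwann cell markers, a list that holds Cdh19 itself, 10 were highest there, beside 30.5% of all genes with a read. Sox10 was among them (7.19 FPKM, against 1.24 to 1.39 FPKM elsewhere). The markers not highest there were Prx and Egr2, and Egr2 was lowest there (1.21 FPKM, against 1.47 to 2.66 FPKM elsewhere). Of the other type II members, Cdh7 had no read in any library, where 3 reads would have given at most 0.0173 FPKM.

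The delta protocadherins form the main non-clustered group. Pcdh7 (chromosome 5, 57717967 to 58133230) measured 33.6, 25.8 and 21.3 FPKM across the wild-type libraries and 33.2, 17.7 and 24.4 FPKM across the heterozygous ones, so that wild-type and heterozygous values alternated from the highest to the lowest. Exons of other genes overlap 21.1% of its exon length, and how reads there were counted is not known. Pcdh1 measured 2.48, 2.60 and 2.31 FPKM across the wild-type libraries and 1.86, 6.47 and 2.43 FPKM across the heterozygous ones. Its wild-type libraries were close to each other (SD 0.145), and heterozygote replicate 2 was 2.67 times the median of the others. Pcdh19, which acts with N-cadherin, was even across libraries, between 1.06 and 1.27 FPKM in wild type and 0.774 and 1.21 FPKM in heterozygotes. Pcdh12, known from endothelium, measured 0.678, 1.03 and 0.844 FPKM across the wild-type libraries and 0.416, 2.53 and 0.552 FPKM across the heterozygous ones. Its highest value fell in heterozygote replicate 2, the library with the lowest summed endothelial markers. Of 10 such markers 7 were lowest there, but 1, Kdr, was highest (14.6 FPKM, against 3.43 to 5.42 FPKM elsewhere). Of all tested genes, 34.0% were lowest and 27.1% highest in that library. Without that library the mean of Pcdh12 was under 1 FPKM. Pcdh8 had no read in any library, where 3 reads would have given at most 0.0382 FPKM.

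**Figure D2:**
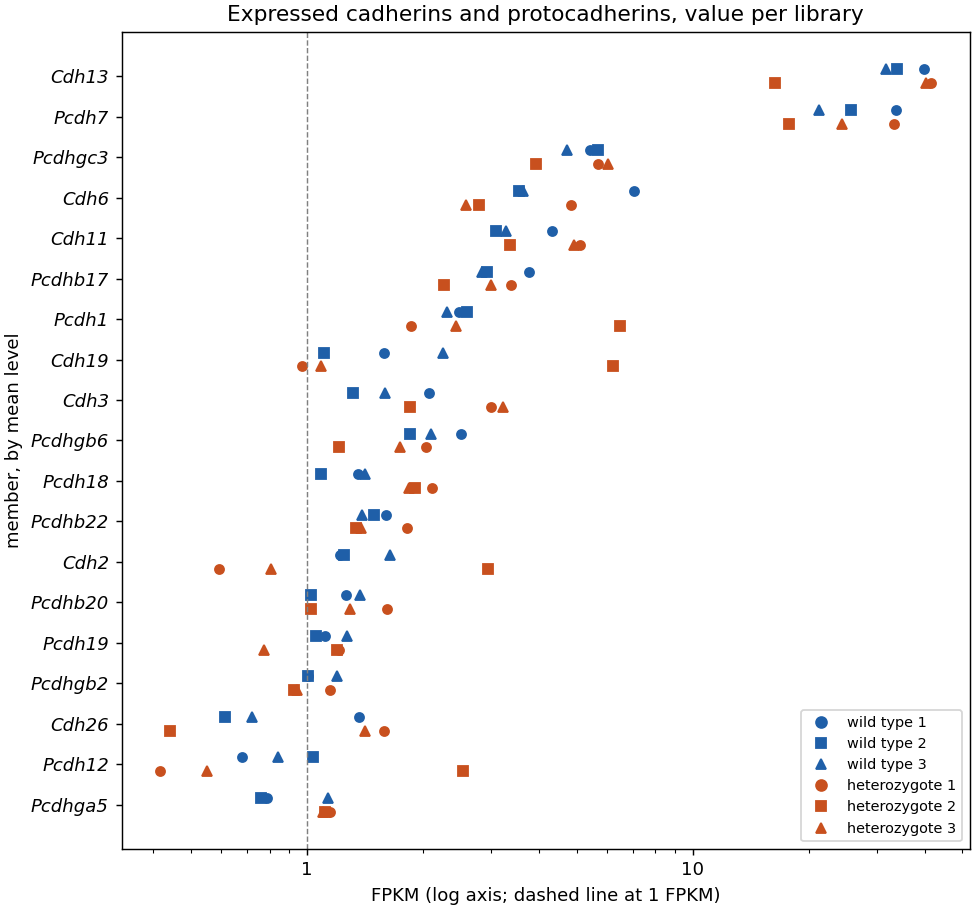
FPKM (log axis) of the 19 expressed members in each library, ordered by mean, with wild type in blue above and heterozygotes in orange below, and 1 marker shape per replicate number. Heterozygote replicate 2 (orange squares) is the lowest point for 9 members, among them Cdh13 and Pcdh7, and the highest for Pcdh1, Cdh19, Cdh2 and Pcdh12.

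Pcdh18, a delta-2 protocadherin (ENSMUSG00000037892, chromosome 3, 49743296 to 49757325, minus strand), was the expressed member whose groups did not overlap. It measured 1.36, 1.09 and 1.42 FPKM across the wild-type libraries and 2.11, 1.91 and 1.84 FPKM across the heterozygous ones. All heterozygote libraries, replicate 2 included, lay above all wild-type ones, with means of 1.29 ± 0.177 and 1.95 ± 0.143 FPKM. In log2 terms the difference came to 0.37 (SE 0.12), with a 95% interval from 0.09 to 0.65 (a fold of 1.06 to 1.57 of FPKM + 1). Its unadjusted p was 0.0173 and its adjusted p from limma 0.666, so it did not pass over all genes. The exact two-sided permutation p was 0.1, the smallest that 3 libraries against 3 can give. Over all 12701 tested genes, 12.8% had groups that did not overlap, and 1 of the 19 expressed members did.

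The bases before the start of Pcdh18 are shown because it was the only expressed member with separated groups, and those of Cdh6 beside them because it was abundant and its window lies wholly outside the annotated gene. The end of the Pcdh18 window reaches into the first bases of that gene in GENCODE. Promoter sequences in the table used here (RefSeq, GRCm38.p6) matched 22 members, 5 of them expressed. Both windows hold the 250 bases before the start, 5′ to 3′ on the minus strand, at chr3:49757317-49757566 and chr15:13173676-13173925, with motif matches in capitals:
Pcdh18: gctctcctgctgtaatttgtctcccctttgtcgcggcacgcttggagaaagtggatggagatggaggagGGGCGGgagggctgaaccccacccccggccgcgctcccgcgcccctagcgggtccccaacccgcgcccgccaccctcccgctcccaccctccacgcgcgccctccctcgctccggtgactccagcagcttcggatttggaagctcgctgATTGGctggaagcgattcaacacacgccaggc
Cdh6: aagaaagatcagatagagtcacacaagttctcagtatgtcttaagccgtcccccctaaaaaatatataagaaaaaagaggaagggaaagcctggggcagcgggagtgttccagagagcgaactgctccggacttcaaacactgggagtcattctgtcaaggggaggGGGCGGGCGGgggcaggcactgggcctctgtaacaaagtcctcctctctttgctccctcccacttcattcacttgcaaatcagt
The motifs searched on both strands were the E-boxes CACGTG and CAGGTG, the GC box GGGCGG, the TATA box TATAAA and CCAAT. The Pcdh18 window held 1 GC box and, on the other strand, 1 CCAAT, and the Cdh6 window held 2 GC boxes that overlap by 2 bases. Of 32817 such windows in the table, 32.7% held GGGCGG, 33.8% CCAAT, 12.4% TATAAA, 17.2% CAGGTG and 6.02% CACGTG. The share of G and C was 68% for Pcdh18 and 51.2% for Cdh6, beside a median of 52.4% for all windows.

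The clustered protocadherins lie on chromosome 18, 12 alpha, 21 beta and 21 gamma genes in the files. For the alpha and gamma genes 31.5% to 73.6% of the exon length overlaps exons of other genes, the constant exons among them. Reads on those exons alone do not tell the genes apart. The data bear on how they were counted, since a constant-exon read credited to every gene would set a common minimum. The gamma gene with the fewest reads had 9 to 14 in each library, and 11 of 12 alpha genes had no read in wild type replicate 2. No more than these few reads can therefore have been credited to all genes of an array. Whether the reads on shared exons were left out or each given to 1 gene is not known. The length by which the FPKM was divided held the shared exons. If their reads were left out, the FPKM of alpha and gamma genes are low relative to genes without shared exons. An alternative chosen after seeing the data assumed this and set the reads against the unshared length. With it 10 gamma genes reached 1 FPKM instead of 4, with 3 beta genes and no alpha gene as before. The ratio of FPKM between libraries for 1 gene does not depend on the length, but a fold change on log2(FPKM + 1) does.

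In the gamma array the C-type member Pcdhgc3 (37806364 to 37841873) led, with 5.40, 5.67 and 4.72 FPKM across the wild-type libraries and 5.69, 3.94 and 6.02 FPKM across the heterozygous ones. It held 29.96% to 36.98% of the reads of the 21 gamma genes in each library. Pcdhgb6 measured 2.51, 1.85 and 2.098 FPKM across the wild-type libraries and 2.03, 1.21 and 1.74 FPKM across the heterozygous ones, and all but 1 heterozygote value was below the wild-type range. Pcdhgb2 had means of 1.07 and 1.00 FPKM. Pcdhga5 measured 0.786, 0.759 and 1.13 FPKM across the wild-type libraries and 1.15, 1.12 and 1.10 FPKM across the heterozygous ones, where wild type replicate 3 fell among the heterozygotes. Heterozygote replicate 2 had the lowest value for 10 of 21 gamma genes and the highest for 1. Of all genes with a read it was the lowest for 19.1% and the highest for 30.5%.

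The beta genes have no constant exons, and 18 of 21 overlap no exon of another gene. The largest share was that of Pcdhb12, where exons of other genes overlap 63.5% of the exon length. Pcdhb17 (37484795 to 37489454) led with 3.76, 2.93 and 2.85 FPKM across the wild-type libraries and 3.37, 2.27 and 3.00 FPKM across the heterozygous ones, followed by Pcdhb22 (group means 1.49 and 1.51 FPKM) and Pcdhb20 (1.22 and 1.31 FPKM). Every beta gene had at least 3 reads in every library. In log2(FPKM + 1), 18 of 21 beta genes had a higher mean in heterozygotes, with a median difference of 0.05, and 17 of 21 without heterozygote replicate 2 or after median-ratio scaling. Of the gamma genes 12 of 21 were higher, 14 of 21 without heterozygote replicate 2 and 10 of 21 after median-ratio scaling. Over all 27132 genes with a read, 57.6% were higher with a median of 0.01, and 50.7% without heterozygote replicate 2. The groups did not overlap for 4 of 21 beta genes, Pcdhb14, Pcdhb15, Pcdhb12 and Pcdhb6, each with a mean below 1 FPKM and higher in heterozygotes, as were 6.62% of all genes with a read. Pcdhb14 measured 0.724, 0.570 and 0.696 FPKM across the wild-type libraries and 0.787, 0.792 and 1.01 FPKM across the heterozygous ones, and Pcdhb15 was at 0.410, 0.447 and 0.515 FPKM and at 0.606, 0.744 and 0.567 FPKM. The groups did not overlap in either direction for 10.1% of all genes with a read. Pcdhb12 and Pcdhb6 rest on 3 to 12 reads per library, and the beta genes are neighbours of similar sequence, so they are not independent of each other.

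The alpha genes were at or near 0 in 5 libraries and present in heterozygote replicate 2. Pcdhac2, the highest of them, had 18, 8 and 22 reads in wild type replicates 1 to 3 and 29, 153 and 13 reads in heterozygote replicates 1 to 3. The other 11 alpha genes together had 2, 0 and 11 reads in wild type and 1, 96 and 5 reads in heterozygotes, and all 11 had a read in heterozygote replicate 2. For 12 of 12 alpha genes heterozygote replicate 2 held the highest value, as it did for 30.5% of all genes with a read. The neuron markers summed to 30.4, 29.9 and 56.2 FPKM in wild type and to 27.7, 517.8 and 30.02 FPKM in heterozygotes, so that the 2 libraries with the most of them, heterozygote replicate 2 and wild type replicate 3, also had the most reads on these 11 alpha genes. The part of neural tissue in the alpha reads was not tested beyond this order. Pcdh10 (0.699 FPKM, 0.0343 to 0.134 FPKM elsewhere) and Pcdh17 (0.688 FPKM, 0.0921 to 0.196 FPKM elsewhere), named after their values were seen, were likewise highest in heterozygote replicate 2. Heterozygote replicates 1 and 3, with 1 and 5 reads on the 11 alpha genes, were within the range of wild type.

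**Figure D3:**
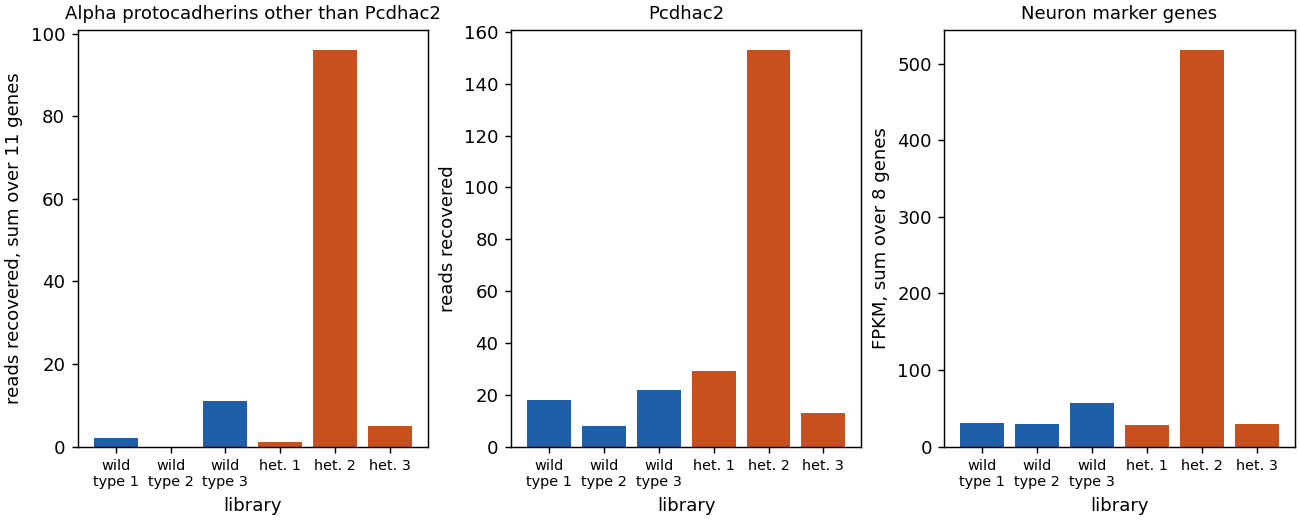
Reads recovered for the 11 alpha protocadherins other than Pcdhac2 (left), reads for Pcdhac2 (middle) and summed FPKM of 8 neuron markers (right) in each library, wild type in blue and heterozygotes (het.) in orange. Heterozygote replicate 2 is far above the other libraries in all 3 panels, and wild type replicate 3 is second in the left and right panels.

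Between genotypes, no expressed cadherin or protocadherin passed the test. All 19 were among the 12701 genes fitted with limma, 0 of the 19 had an adjusted p under 0.05 (background 0.0% of tested genes), and their adjusted p ranged from 0.666 to 0.997. With limma voom on reads recovered from the FPKM, 0 passed as well (background 0.0%), and with array quality weights 1 did, Cdh3 (log2 fold change 0.74, limma adjusted p = 0.0448, range over its 15 alternatives 0.0448 to 1.00), beside 1.56% of all tested genes. At an unadjusted p under 0.05 there was 1 member, Pcdh18, beside 6.28% of all tested genes, and 2 with voom, Pcdh18 and Cdh3, beside 6.35%. The log2 fold change was above 0 for 10 members and below 0 for 9, with a median of 0.0063, and for 9 and 10 with a median of -0.02 after median-ratio scaling. By mean FPKM 11 members were higher and 8 lower, the difference being Cdh2. Over all tested genes the median log2 fold change was 0.02 and 53.5% were above 0. Of 88 members, 16 had a mean of at least 1 FPKM in both groups, and Cdh26, Pcdh12 and Pcdhga5 reached it in heterozygotes alone, at 1.15, 1.17 and 1.12 FPKM against 0.899, 0.852 and 0.892 FPKM in wild type. For Pcdh12 this rests on heterozygote replicate 2, since heterozygote replicates 1 and 3 (0.416 and 0.552 FPKM) lay below every wild-type value. Cdh26, Pcdh12 and Pcdhga5 are all among the 10 members with a log2 fold change above 0. They passed the filter only through their heterozygote values, so the filter itself set part of the counts of direction. The standard errors of 0.12 to 0.51 on the log2 scale leave intervals that include 0 for 18 of the 19 members.

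After Pcdh18 the smallest p was that of Cdh3, with a log2 fold change of 0.46 (SE 0.19, limma adjusted p = 0.790, exact permutation p = 0.2). Cdh11 was at 0.25 (SE 0.17), Pcdhga5 at 0.17 (SE 0.14) and Pcdh1 at 0.27 (SE 0.35). On the lower side Cdh6 was at -0.36 (SE 0.29), Pcdhgb6 at -0.25 (SE 0.16) and Pcdhb17 at -0.11 (SE 0.15). The widest interval belonged to Cdh19, from -0.99 to 1.49 around 0.25. Heat shock and immediate early genes, a list of 11 that responds to tissue handling, summed to 897.8 to 1156 FPKM in wild type and to 254.8 to 651.2 FPKM in heterozygotes, without overlap. Of the 11 genes, 4 had groups that did not overlap, all lower in heterozygotes, beside 12.8% of all tested genes in either direction. Fold changes were above 0 for 2 of the 11, Jun and Dnajb1. Hspb1 alone averaged 535.1 FPKM in wild type against 187.1 FPKM in heterozygotes. The part of handling in the member values was not tested.

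Without heterozygote replicate 2, 4 members had an unadjusted p under 0.05. Cdh3, Cdh11 and Pcdh18 had log2 fold changes of 0.64, 0.41 and 0.38 with unadjusted limma p of 0.00449, 0.0231 and 0.0248, and Cdh2 had a log2 fold change of -0.48 with an unadjusted p of 0.0168. None of the 17 members tested in that fit passed after adjustment (smallest adjusted p = 0.255, background 0.0%), and 13.8% of all tested genes had an unadjusted p under 0.05. The groups did not overlap for 8 of these 17 members (Cdh2, Cdh3, Cdh11, Cdh13, Cdh19, Cdh26, Pcdh18 and Pcdhgc3), beside 33.0% of all genes tested. The sign of the fold change of Cdh13, Pcdh7, Pcdhgc3 and Pcdhb17 turned from negative to positive (0.22, 0.10, 0.13 and 0.0071), and that of Pcdh1 and Cdh19 from positive to negative (-0.14 and -0.36). Heterozygote replicate 2 was the lowest library for 9 and the highest for 4 of the 19 members. Of all tested genes it was the lowest for 34.0% and the highest for 27.1%.

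**Figure D4:**
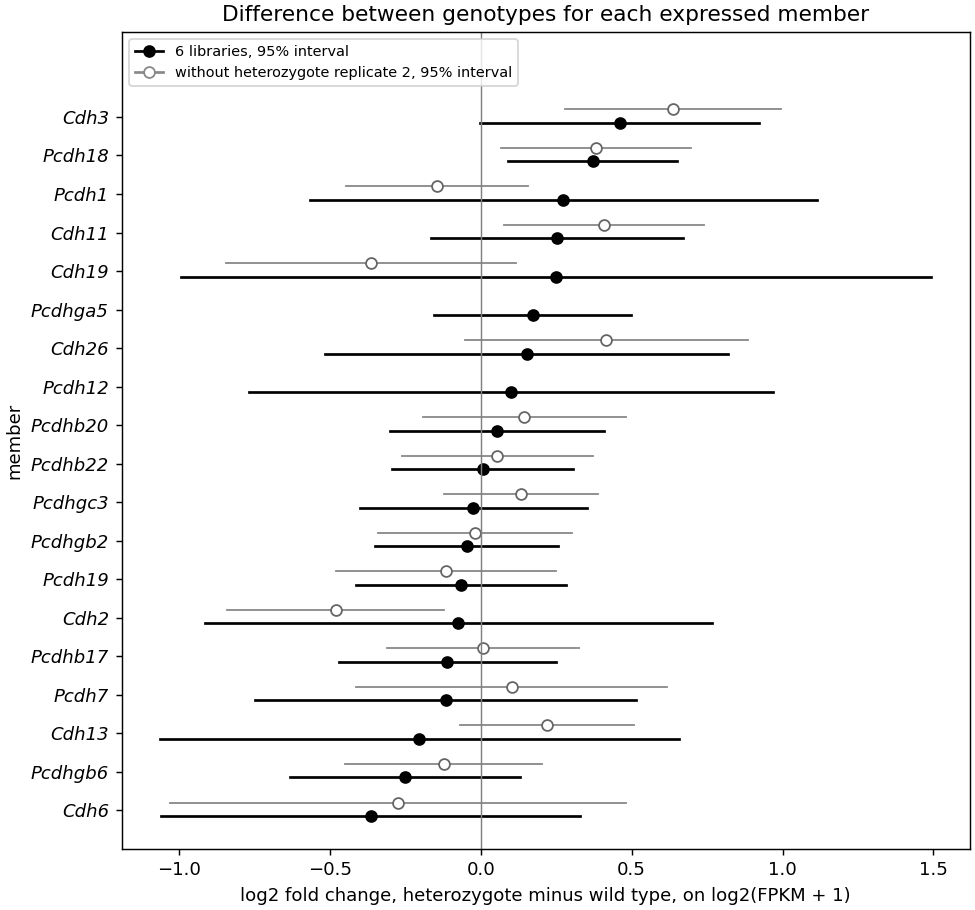
Log2 fold change, heterozygote minus wild type, on log2(FPKM + 1) with 95% intervals for each expressed member, from all 6 libraries (filled) and without heterozygote replicate 2 (open). With 6 libraries the interval of Pcdh18 alone lies off 0, and without heterozygote replicate 2 those of Cdh3, Pcdh18, Cdh11 and Cdh2 do. Pcdhga5 and Pcdh12 have no open point because their means fell under 1 FPKM.

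The genes that work with cadherins were read from the same fit, in lists written with earlier results of these data known. None of their tested members passed after adjustment, and at an unadjusted limma p under 0.05 there were 2 of 17 adherens junction genes, 1 of 8 genes of the cadherin superfamily and 1 of 14 cluster regulators, beside 6.28% of all tested genes. Every tested gene of the lists whose groups did not overlap is named below, and 12.8% of all tested genes had such groups. After median-ratio scaling each list had 1 or 2 fewer genes on the higher side than given here. Of 17 tested adherens junction genes 7 were higher and 10 lower (median log2 fold change -0.04). Of the catenins, beta-catenin (Ctnnb1) was at 101.7 ± 10.2 and 94.4 ± 22.4 FPKM, alpha-catenin (Ctnna1), which couples the junction to actin, at 98.1 ± 5.62 and 91.4 ± 9.73 FPKM, and p120-catenin (Ctnnd1) at 2.30 ± 0.146 and 2.40 ± 0.837 FPKM, each with overlapping groups. Nectin1, a junction protein beside cadherins, averaged 8.10 ± 1.16 FPKM in wild type against 4.55 ± 2.05 FPKM in heterozygotes with groups that did not overlap (log2 fold change -0.79, limma adjusted p = 0.780, and -0.43 without heterozygote replicate 2). The beta-catenin inhibitor Ctnnbip1 (3.70 and 5.66 FPKM) and the p120 relative Arvcf (3.52 and 5.85 FPKM) had every heterozygote value above the wild-type ones. Their log2 fold changes were 0.48 and 0.52, and 0.30 and 0.19 without heterozygote replicate 2.

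Among other genes of the cadherin superfamily, 8 of 23 were tested, 4 higher and 4 lower (median -0.05). Celsr2, a cadherin of planar cell polarity, was at 2.58 ± 0.289 and 4.38 ± 1.16 FPKM with groups that did not overlap (log2 fold change 0.57, limma adjusted p = 0.664). The calsyntenin Clstn1 (81.5 and 84.1 FPKM), the giant cadherin Fat1 (30.2 and 25.9 FPKM) and Celsr1 (2.50 and 2.11 FPKM) had overlapping groups. The calsyntenin Clstn3 measured 6.17, 17.5 and 17.2 FPKM across the wild-type libraries and 3.42, 29.7 and 8.33 FPKM across the heterozygous ones, with a log2 fold change of -0.31 that was -1.06 without heterozygote replicate 2. Of 10 genes for ligands and shedding 4 were higher and 6 lower (median -0.10). The sheddase Adam10 was at 32.5 and 26.5 FPKM, the gamma-secretase subunits Psenen and Psen2 at 24.4 and 28.6 FPKM and at 8.70 and 9.97 FPKM, and the protease Furin, which matures cadherins, at 16.5 ± 0.159 and 15.0 ± 0.603 FPKM with every heterozygote value below wild type.

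Regulators of the protocadherin clusters, CTCF and cohesin among them, had 5 genes higher and 9 lower of 14 tested (median -0.06). Ctcf itself was at 14.5 ± 0.808 and 14.4 ± 1.88 FPKM, Rad21 at 34.7 and 33.3 FPKM and Smc1a at 19.6 and 20.4 FPKM. Nipbl (8.29 and 7.21 FPKM) and Zfp143 (4.17 and 3.50 FPKM) overlapped between groups. Pds5a (3.68 and 2.97 FPKM), Stag2 (12.3 and 11.1 FPKM) and Wapl (10.1 and 8.99 FPKM) did not, each lower in heterozygotes. Transcription factors of the switch from E-cadherin to N-cadherin had 7 of 7 tested genes with a log2 fold change above 0 (median 0.10), and 5 of 7 after median-ratio scaling, where Prrx1 and Zeb1 were lower. Each of them overlapped between groups, with Snai1 at 4.02 ± 0.931 and 5.17 ± 1.16 FPKM, Snai2 at 3.41 and 3.93 FPKM, Twist1 at 9.41 and 10.7 FPKM, Zeb1 at 12.1 and 12.1 FPKM, Zeb2 at 4.08 and 4.41 FPKM and Prrx1 at 12.8 and 13.1 FPKM. Cdh1, which Snai1, Snai2, Zeb1 and Zeb2 are known to repress, stayed at or below 0.329 FPKM in each library. Repression of Cdh1 in these samples was not tested.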

How the data were processed

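The authors deposited 1 table per library with an FPKM-type value for each of 29752 genes. Whether reads or fragments were counted is not stated. Per the submitters' processing notes the tools were HISAT2 2.1.0, Bowtie2 2.2.3 and TopHat2 with the build GRCm38, and no counter or annotation is named (not given in the sources used here). Multiplied by the exon length of GENCODE M21, which holds 29687 of the identifiers, 94.8% to 95.2% of values under 30 reads were whole within 0.01 reads, which gave the read numbers. Counts for Cdh6, Pcdh12, Cdh24, Pcdh17, Cdh12 and Cdh9 were not whole and are approximate. The headers inside the heterozygote files number the libraries differently from the titles, and the titles were used.

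Genes with a mean of at least 1 FPKM (12701) were fitted with limma 3.58.1 in R 4.3.3, with a mean-variance trend on log2(FPKM + 1), all 6 libraries and Benjamini-Hochberg adjustment at 0.05. A pseudocount of 1 understates the change of low genes. Alternatives were another pseudocount, filter and scaling, a replicate block, an adipocyte covariate, array quality weights, voom and leaving out each library. The fit was tested on simulated data, with normal noise drawn separately for each gene and library and so without an outlying library. It recovered 55.3% of 2-fold and 88.6% of 4-fold changes of FPKM + 1. Members and lists were chosen with earlier results of these data known. Every member with a mean of at least 1 FPKM is named, with values per library for the 8 highest and the 8 with the smallest p. Below that, the 3 nearest members and the highest of each clustered group are named, and of each partner list the 3 highest and the 3 with the smallest p. Cdh2, Pcdh12, Cdh26 and the other genes named outside this rule were added after their values were seen. Tables and plots used pandas 2.3.3, numpy 2.4.6 and matplotlib 3.10.9 under Python 3.11.15.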

Additional observations from a re-analysis of the deposited data

How the results depend on the processing

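No member passed the threshold under 14 of the 15 alternatives, and with array quality weights, which gave heterozygote replicate 2 a weight of 0.163 against 0.673 to 3.61 for the others, 1 member did (Cdh3, log2 fold change 0.74, limma adjusted p = 0.0448, range over its 15 alternatives 0.0448 to 1.00), beside 198 of all tested genes (1.56%). Of all tested genes 0 to 1 passed when a library was left out, with 1 for wild type replicate 2, heterozygote replicate 1 or heterozygote replicate 3. No named gene of the partner lists passed under any alternative run. The count of expressed members was 12 with at least 1 FPKM in every library, 36 at a mean of 0.5 FPKM and 49 after TPM scaling. With the unshared length for clustered members it was 25. TPM scaling raised every value, since FPKM summed to only 289577 to 326771 per library, so the same limit of 1 was looser after it. The count of members whose groups did not overlap was 7 of 86 with no filter (10.1% of all genes), 3 of 49 after TPM scaling (10.7%), and 1 to 8 when a library was left out, with 8 of 17 for heterozygote replicate 2 (33.0%), 5 of 17 for heterozygote replicate 1 (25.4%), 3 of 18 for wild type replicate 1 (22.8%) and 2 of 19 for wild type replicate 2 (18.3%). Of 696 fold changes of members and named partners under alternatives, 53 turned direction. With array quality weights the direction turned for Cdh13 (0.19), Pcdhgc3 (0.10), Pcdh1 (-0.036), Cdh19 (-0.14), Pcdhb22 (-0.025), Pcdh12 (-0.29), Cdh5 (0.011) and Ctcf (0.018). With the adipocyte covariate the direction turned for Pcdhb22 (-0.026), Cdh2 (0.10), Clstn1 (-0.090), Clstn3 (0.076), Prrx1 (-0.019) and Zeb1 (-0.048). With median-ratio scaling the direction turned for Pcdhb22 (-0.016), Clstn1 (-0.027), Prrx1 (-0.0098) and Zeb1 (-0.020). With voom the direction turned for Pcdh12 (-0.025). Leaving out 1 library at a time, the fold changes that turned ranged as follows: Cdh13 -0.42 to 0.22, Pcdh7 -0.33 to 0.10, Pcdhgc3 -0.12 to 0.13, Pcdhb17 -0.20 to 0.0071, Pcdh1 -0.14 to 0.55, Cdh19 -0.36 to 0.58, Pcdhb22 -0.078 to 0.055, Cdh2 -0.48 to 0.18, Pcdhb20 -0.040 to 0.14, Pcdh19 -0.12 to 0.041, Ctnnb1 -0.30 to 0.040, Clstn1 -0.11 to 0.25, Fat1 -0.45 to 0.027, Clstn3 -1.06 to 0.33, Celsr1 -0.48 to 0.074, Adipoq -0.93 to 0.030, Rad21 -0.10 to 0.0017, Ctcf -0.10 to 0.074, Prrx1 -0.074 to 0.099, Zeb1 -0.071 to 0.13 and Zeb2 -0.018 to 0.16. Apart from the unequal weights and the smaller number of libraries, the cause was not tested. Whether the replicate numbers pair the libraries is not given in the labels. Correlations of the deviations of same-numbered libraries were 0.49, -0.14 and -0.39. They cannot settle it, because those of libraries with different numbers ranged from -0.56 to 0.57. With the replicate block no call at the adjusted threshold changed and 0 members passed. In that fit 3 (Pcdh18, Cdh6 and Cdh3) had an unadjusted limma p under 0.05 instead of 1, and the log2 fold change of Pcdh18 was 0.37. Of all 12701 tested genes, 719 had an unadjusted limma p under 0.05 with the replicate block and 798 without it. Depth limits the low members: Cdh26 rests on 23 to 87 reads per library, and the alpha genes other than Pcdhac2 on at most 17.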
